A study of Mus musculus with 30 samples.

Results

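Mouse extraocular muscle, which turns the eyeball, was compared at 48 h and at 0 h of a culture time course. The comparison takes the 12 arrays titled 48 hour EOM or 0 hour EOM of 30 in all, EOM standing for extraocular muscle. The study put total RNA of the cultures on a pair of Affymetrix array types, A and B, at 0, 4, 12, 24 and 48 h, with 3 arrays per time on each type. By their titles the groups of this comparison differ only in time, and the labels name no treatment, strain, age or genotype for either. What 0 h marks, and whether replicates came from different cultures, is not given. Nor is it given whether equally numbered A and B arrays share an RNA sample. P-values thus set the difference between 48 h and 0 h against the scatter of arrays within a time, pooled over all times. That scatter may be technical. The B array titled 0 hour EOM, replicate 1, has leg muscle in its source name but was kept, by its title, in the 0 h group. B array calls were also made without it, while B marker sums and the share of B probe sets without overlap include it.

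A muscle culture holds myoblasts, which divide, and myotubes, which form when myoblasts leave the cell cycle, fuse and build sarcomeres, the contractile units of muscle. The Id proteins, which BMP signals induce, hold MyoD and its relatives inactive in dividing myoblasts. When cells run short of amino acids, or when proteins misfold in the endoplasmic reticulum, kinases acting on the translation factor eIF2 slow protein synthesis and let the transcription factor ATF4 be made. ATF4 switches on genes that make, import and charge amino acids, together with the stress factor CHOP and the inhibitor TRIB3. The aryl hydrocarbon receptor and NRF2 are separate sensors, the first for planar aromatic compounds and the second for oxidants, and each drives its own set of detoxifying enzymes.

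Intensities below are linear array values in the order of replicates 1, 2 and 3, and a probe set is the group of probes made for a transcript. A log2 change is the mean log2 of intensity plus 16 at 48 h minus that at 0 h, given ± SE from a linear model of all 15 arrays of the type, with 3 arrays per time. The added 16 understates the change of dim probe sets. A gene passed where limma's adjusted p was under 0.05, and it was counted once by its brightest tested probe set, A arrays before B. The number of arrays limits the precision.

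The values were tested per probe set, and control probe sets and the dimmest 40% by the mean over all 15 arrays of a type were left out. Genes dim at 0 h could therefore enter the test through brighter later times, and genes dim at 48 h through brighter earlier ones. Atf3, Fbln5, Postn and Bmp4 lay below the A cut of 101 on every 0 h array, and Ankrd23 below the B cut of 199.6. Among genes that fell, Atoh8, Cyp1a1, Ahrr, Smoc2, Sct, Nefm and, on the A arrays, Nefl and Vegfc lay below the A cut on every 48 h array. So did 1 probe set of Rgs4. Entry of all these genes into the test was thus not independent of their change. On the A arrays 570 of 13577 probe sets tested (4.2%) were higher at 48 h and 339 (2.5%) were lower, and on the B arrays 99 of 13507 (0.733%) and 27 (0.2%). An unadjusted p under 0.05 was reached by 2670 of the 13577 A and 1397 of the 13507 B probe sets tested. List counts at that level, where given below, are to be read against these. Values of the times did not overlap for 24% of the A and 14.3% of the B probe sets. Among those that passed, 904 of 909 on A and all 126 on B did not overlap. A lack of overlap, where given below, thus describes the values and adds little to a call. Counted by gene, 421 of 12542 (3.36%) were higher and 226 (1.8%) lower, with a median change of 0.03 over all genes. The counts of each gene list at 48 h against 0 h are to be read against these shares. For 24 h against 0 h the share of all genes that passed was not counted. List counts of that comparison thus only describe the lists. Scaling each array to the same median moved the median of all A probe sets from 0.02 to -0.08, and the share of A calls that were higher from 62.7% to 42.7%. Without 1 of the 6 arrays the A count of 909 lay between 526 (without 0 h replicate 1 or 48 h replicate 1) and 744, and the B count of 126 between 74 (without 0 h replicate 1) and 131. The myotube markers were bright at both times: the 8 on the A arrays summed to 43866 to 51509 at 0 h and 51798 to 62849 at 48 h. Fewer cells of a type and less RNA per cell cannot be told apart in such bulk samples. Of the genes named from the B arrays that passed, Mybpc1 and Dusp4 lost their call without the array labelled leg muscle, and the others kept it. The extraocular myosin gene Myh13 was not analysed here.

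**Figure D1:**
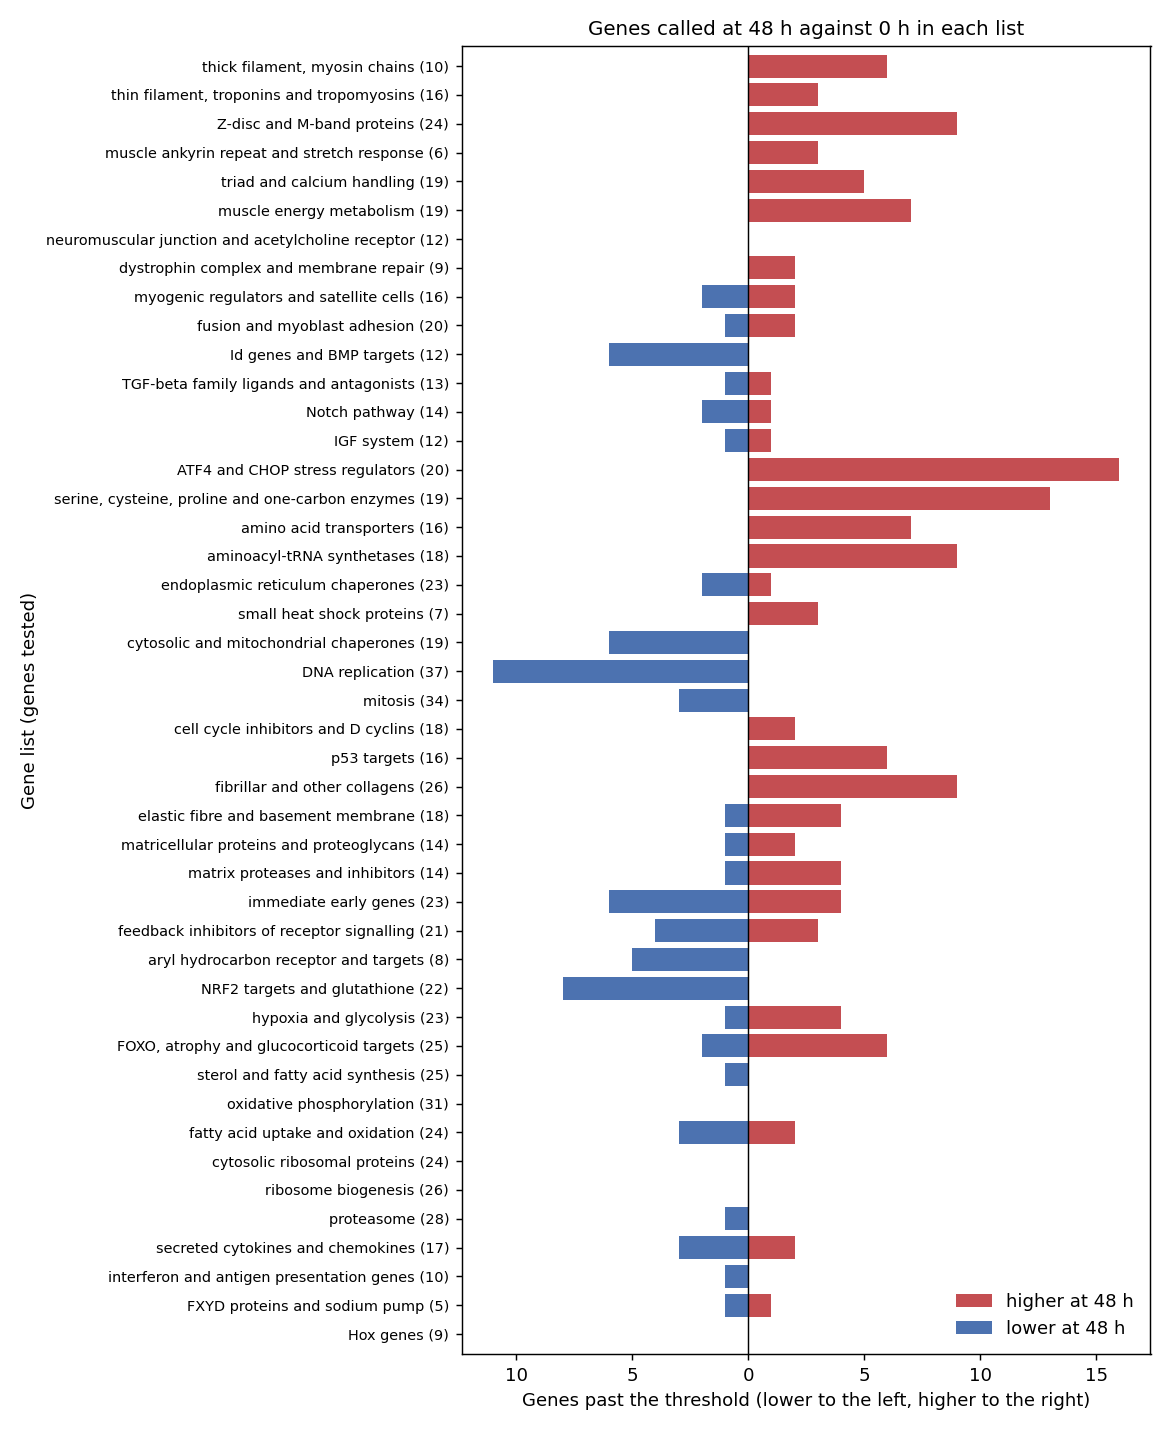
Number of genes that passed at 48 h against 0 h in each of 45 gene lists, higher to the right in red and lower to the left in blue, with the number of genes tested in brackets. The ATF4 and CHOP list has the longest bar, with 16 of 20 genes higher, and the DNA replication list the longest to the left, with 11 of 37 lower.

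The genes of the amino acid response were the group with the most calls. Of 73 tested genes in 4 lists (ATF4 and CHOP regulators, enzymes of amino acid and one-carbon metabolism, amino acid transporters, and tRNA synthetases), 45 rose and none fell, against 3.36% and 1.8% of all genes. The lists, pooled here, were chosen with earlier results of these data known, so the count describes them and is no test. Among the promoters of the higher genes, a sequence that C/EBP and ATF factors bind as pairs, TGATGNAA, was searched on both strands. The windows run from 250 bases before to 50 bases after a gene's start, in RefSeq on build GRCm38.p6. The lines below show this sequence, in capitals and read on the gene's own strand, with up to 20 bases to each side, for genes whose values follow. Where a window reads TTNCATCA, the match lies on the opposite strand.

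Trib3, chr2:152344019-152344066, minus strand: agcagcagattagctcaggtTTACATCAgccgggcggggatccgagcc

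Asns, chr6:7693205-7693252, minus strand: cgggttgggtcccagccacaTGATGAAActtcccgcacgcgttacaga

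Chac1, chr2:119351029-119351076, plus strand: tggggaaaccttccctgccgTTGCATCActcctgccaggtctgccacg

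Atf3, chr1:191183416-191183463, minus strand: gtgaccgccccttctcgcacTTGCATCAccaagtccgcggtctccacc

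Nupr1, chr7:126625553-126625600, minus strand: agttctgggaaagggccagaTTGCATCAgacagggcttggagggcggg

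Vldlr, chr19:27216800-27216847, plus strand: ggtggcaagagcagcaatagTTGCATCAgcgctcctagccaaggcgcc

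Pck2, chr14:55540143-55540190, plus strand: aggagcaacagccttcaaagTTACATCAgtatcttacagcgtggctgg

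Slc1a4, chr11:20332690-20332737, minus strand: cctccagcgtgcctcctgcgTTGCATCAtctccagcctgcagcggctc

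Tars, chr15:11399646-11399693, minus strand: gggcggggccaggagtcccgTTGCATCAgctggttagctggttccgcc

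Yars, chr4:129189886-129189933, plus strand: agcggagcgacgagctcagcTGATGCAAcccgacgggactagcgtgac

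Fgf21, chr7:45615602-45615649, minus strand: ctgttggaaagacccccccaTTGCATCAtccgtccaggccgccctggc

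Jdp2, chr12:85599363-85599410, plus strand: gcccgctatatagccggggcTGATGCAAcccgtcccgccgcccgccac

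The sequence was in 13 of the 34 higher members of the 4 lists, of 45, that had a promoter in the table (38.2%). It was in 17 of 286 higher genes outside those lists (5.94%), in 4 of 186 lower genes (2.15%), in 287 of 10129 tested genes (2.83%) and in 1304 of all 32851 promoters (3.97%). The shown examples include Fgf21 and Jdp2, members of the regulator list that did not pass. Herpud1 and Iars, other members of the 4 lists that did not pass, held the sequence too. Its share among list members that did not rise was not counted. The 38.2% thus cannot be read as particular to the members that rose. Shares of the other searched sequences follow, and no difference between sets was tested. The AP-1 sequence TGANTCA was in 8.75% of higher, 6.99% of lower and 6.43% of tested genes, and the E-box CAGCTG in 19.7%, 20.4% and 18.4%. The full cyclic AMP element TGACGTCA was in 2.5%, 1.08% and 3.4%, and 1 of the 34 list members held it. The core of the aryl hydrocarbon receptor's element, GCGTG, was in 57.8%, 63.4% and 54.4%, and in 73.5% of those 34. A match is a description of the window and not a bound site.

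Among the regulators, 16 of 20 rose and none fell, with a median change of 1.89. Trib3, the kinase-like inhibitor that ATF4 and CHOP induce, had intensities of 104, 135 and 59.6 at 0 h and 1666, 1964 and 2011 at 48 h (log2 change 4.09 ± 0.21, limma adjusted p = 6.22e-09). Every 48 h array lay far above every 0 h array. Atf3, a stress-induced factor of the ATF family, measured 18, 8 and 57.2 at 0 h and 539.7, 435 and 763 at 48 h (log2 change 3.89 ± 0.43, limma adjusted p = 2.54e-05). Ddit3, which encodes CHOP, measured 179, 197 and 115 at 0 h and 1672, 1306 and 1656 at 48 h (log2 change 3.14 ± 0.22, limma adjusted p = 3.19e-07). A second, dimmer probe set of Ddit3 did not pass. These 3 genes were dim at 0 h and moderately bright on all 48 h arrays.

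Atf4 itself had a smaller fitted change, though the difference from these genes was not tested. Its intensities were 3749, 4374 and 3769 at 0 h and 6791, 6658 and 5990.1 at 48 h (log2 change 0.71 ± 0.14, limma adjusted p = 0.00372), without overlap. The protein is controlled largely by translation, which arrays do not measure. Its relative Atf5 measured 808, 715 and 651 at 0 h and 2335, 2759 and 2617 at 48 h (log2 change 1.81 ± 0.15, limma adjusted p = 1.55e-06). Cebpb and Cebpg encode C/EBP partners of ATF4, and Cebpb measured 855, 875 and 909 at 0 h and 1759.7, 2232 and 2149 at 48 h (log2 change 1.20 ± 0.14, limma adjusted p = 2.99e-05), while Cebpg changed by 1.06 ± 0.14. The Cebpb arrays lay close together at 0 h, and all 48 h values were well above them.

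Chac1, which degrades glutathione, measured 403, 383 and 311 at 0 h and 1814, 1623 and 1828 at 48 h (log2 change 2.22 ± 0.18, limma adjusted p = 7.88e-07). Ppp1r15a, the regulatory subunit that removes the phosphate from eIF2 and so ends the block, measured 441, 350.2 and 279 at 0 h and 1693, 1392 and 2049.6 at 48 h (log2 change 2.22 ± 0.23, limma adjusted p = 1.56e-05). Sesn2, an inhibitor of mTORC1 that senses leucine, measured 199.7, 138 and 246 at 0 h and 859.7, 806 and 874 at 48 h (log2 change 2.07 ± 0.24, limma adjusted p = 3.93e-05), and Nupr1, a small stress-induced nuclear protein, 340.3, 212 and 226 at 0 h and 1430.4, 1301 and 1579 at 48 h (log2 change 2.42 ± 0.22, limma adjusted p = 3.76e-06). None of these 4 overlapped between the times. The others that rose were Vldlr, a lipoprotein receptor (1.98 ± 0.21, with 2 other probe sets not past the threshold), Nfil3 (1.47 ± 0.20), Eif4ebp1, which restrains cap-dependent translation (0.82 ± 0.13), Ndrg1 (2.69 ± 0.25, with its 4 other probe sets also higher) and Stbd1 (1.11 ± 0.25), which lost its call without 0 h or 48 h replicate 3. Fgf21, a secreted stress hormone (2.28 ± 0.74, adjusted p = 0.0781), Herpud1 (1.10 ± 0.33, adjusted p = 0.0575), Ddit4 (0.54 ± 0.17, adjusted p = 0.0613) and Jdp2 (0.20 ± 0.14) did not pass in limma.

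**Figure D2:**
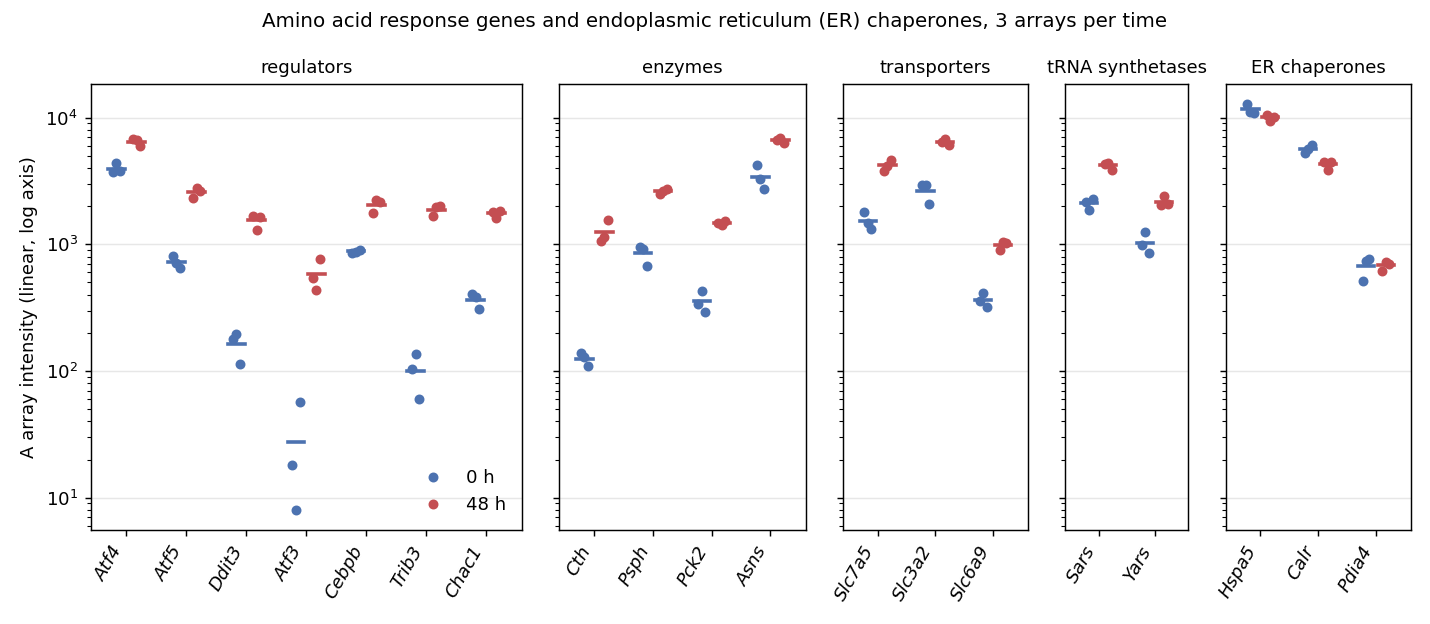
Intensity of 19 genes on each A array at 0 h (blue) and 48 h (red), on a log axis, with a bar at the mean of 3 arrays. The 16 regulators, enzymes, transporters and synthetases lie higher on every 48 h array than on any 0 h array. Of the 3 chaperones Calr passed as lower, and Hspa5 and Pdia4 did not pass.

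Enzymes that make serine, cysteine, proline and one-carbon units rose in 13 of 19 cases, with a median of 0.82. Cth, which makes cysteine from cystathionine, had intensities of 139, 129 and 109 at 0 h and 1056, 1139 and 1549 at 48 h (log2 change 3.14 ± 0.23, limma adjusted p = 3.9e-07). Cbs, the enzyme one step before it, measured 146 ± 19.1 at 0 h and 149 ± 43.4 at 48 h and did not pass (log2 change -0.01 ± 0.25). The serine pathway runs through Phgdh, Psat1 and Psph in that order. Its last enzyme, Psph, measured 955, 911 and 680.2 at 0 h and 2518, 2623 and 2737 at 48 h (log2 change 1.63 ± 0.13, limma adjusted p = 1.01e-06). Psat1 measured 3861, 3486 and 4266 at 0 h and 6980.1, 6188 and 7361 at 48 h (log2 change 0.82 ± 0.13, limma adjusted p = 0.000552), with 1 other probe set not past the threshold. Phgdh, the first, measured 4259, 4504 and 5185 at 0 h and 7113, 6895 and 6069.6 at 48 h (log2 change 0.53 ± 0.12, limma adjusted p = 0.0135) and lost its call without 0 h or 48 h replicate 1 and under median scaling. All 3 enzymes had their lowest 48 h array above their highest 0 h array.

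In the mitochondrial folate pathway, Mthfd2 measured 2016, 1894 and 1621 at 0 h and 3987, 4513 and 3629 at 48 h (log2 change 1.13 ± 0.14, limma adjusted p = 6.82e-05). Aldh1l2, its companion that oxidises formyl-folate, was measured on the B arrays at 864, 654 and 768 at 0 h and 4079.8, 3412 and 6687 at 48 h (log2 change 2.56 ± 0.22, limma adjusted p = 6.61e-05). The cytosolic counterparts Mthfd1 (-0.17 ± 0.19) and Shmt1 (-0.47 ± 0.23) did not pass, while mitochondrial Shmt2 did (0.80 ± 0.21, lost without any 1 array other than 0 h replicate 3). A further mitochondrial enzyme, Mthfd1l, did not pass (0.62 ± 0.15, adjusted p = 0.0871), and whether the mitochondrial and cytosolic enzymes differed was not tested. Asns, asparagine synthetase, measured 4235, 3306 and 2747 at 0 h and 6632, 6912 and 6266 at 48 h (log2 change 0.96 ± 0.20, limma adjusted p = 0.00569). Pck2, the mitochondrial enzyme that makes phosphoenolpyruvate, measured 339, 427 and 295 at 0 h and 1479, 1409.8 and 1533 at 48 h (log2 change 2.03 ± 0.17, limma adjusted p = 1.38e-06). Aldh18a1, the first enzyme of proline synthesis (1.31 ± 0.16), Bcat1, the cytosolic branched-chain transaminase (1.13 ± 0.18), Gpt2 (1.03 ± 0.30) and Got1 (0.52 ± 0.12) also rose, the last pair losing the call without several single arrays. Bcat2, the mitochondrial transaminase, did not pass (0.02 ± 0.18).

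Of 16 amino acid transporters tested, 7 rose and none fell (median 0.55), but only 4 did so without 48 h replicate 3. Slc7a5 and Slc3a2 are the chains of the carrier that brings in leucine and other large neutral amino acids. Slc7a5 measured 1801, 1462 and 1328 at 0 h and 3783, 4140.3 and 4658 at 48 h (log2 change 1.45 ± 0.15, limma adjusted p = 1.68e-05), and Slc3a2 2926, 2963 and 2075 at 0 h and 6406, 6750.0 and 6135 at 48 h (log2 change 1.29 ± 0.17, limma adjusted p = 0.000142). Neither chain overlapped between the times. Slc1a4, a serine and alanine carrier, measured 297, 322 and 322 at 0 h and 764, 769.7 and 1000.1 at 48 h (log2 change 1.37 ± 0.15, limma adjusted p = 2.8e-05), and the glycine carrier Slc6a9 356, 411 and 319.5 at 0 h and 895, 1039 and 1016 at 48 h (log2 change 1.41 ± 0.15, limma adjusted p = 1.68e-05). Slc7a3, Slc7a1 and Slc1a5 rose by 0.91 ± 0.25, 0.87 ± 0.22 and 0.65 ± 0.18, and each lost its call without several single arrays. Slc38a2, a neutral amino acid carrier known to be induced by amino acid shortage, measured 2369.7 ± 301 at 0 h and 2498 ± 372 at 48 h and did not pass (0.07 ± 0.13). The cystine carrier Slc7a11 was too dim to be tested, at 74.4, 76.0 and 40.9 at 0 h and 162, 168 and 191 at 48 h, without overlap.

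Aminoacyl-tRNA synthetases, which load amino acids onto tRNA, rose in 9 of 18 cases and fell in none (median 0.38). Sars, for serine, measured 2166, 1879 and 2260.0 at 0 h and 4343, 4395 and 3836 at 48 h (log2 change 0.99 ± 0.12, limma adjusted p = 5.3e-05), and Yars, for tyrosine, 989, 1257 and 848 at 0 h and 2025, 2385 and 2064 at 48 h (log2 change 1.07 ± 0.17, limma adjusted p = 0.000698). Aars (0.82 ± 0.11), Tars (0.82 ± 0.14), Gars (0.81 ± 0.15), Wars (0.76 ± 0.14), Lars (0.69 ± 0.11), Cars (0.62 ± 0.13) and Rars (0.37 ± 0.10) also rose. Rars lost its call without any 1 array but 48 h replicate 2. Those for histidine (Hars, -0.35 ± 0.26), glutamine (Qars, -0.05 ± 0.18), valine (Vars, 0.01 ± 0.17) and lysine (Kars, 0.02 ± 0.16) did not pass, nor did Mars1, Farsa, Farsb, Iars and Eprs. The enzymes that passed changed by no more than 1.07 on the log2 scale.

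Chaperones of the endoplasmic reticulum, the targets of the other arms of the unfolded protein response, mostly did not pass. Of 23 tested, 1 rose and 2 fell, with a median of -0.16, and the list was not tested against the amino acid lists. Hspa5, the main chaperone BiP, averaged 11599 ± 1078 at 0 h and 10029.9 ± 510.2 at 48 h (-0.21 ± 0.10, adjusted p = 0.272), and Xbp1 did not pass either (0.47 ± 0.17). Calr (-0.41 ± 0.10) and Creld2 (-0.58 ± 0.14) fell. The one that rose was Ero1a, an oxidase of disulfide formation that CHOP and hypoxia are known to induce, at 380.2, 419.9 and 374 at 0 h and 968, 705 and 1251 at 48 h (log2 change 1.25 ± 0.17, limma adjusted p = 0.000205). Without 0 h replicate 2 the 2 lower calls were lost.

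Between 24 h and 48 h part of the amino acid response rose further. Of 85 A array probe sets that differed between those times (0.626%), 74 were higher at 48 h, and on the B arrays 9 (0.0666%), all higher. Counted by gene, 60 of 12542 (0.478%) were higher and 5 (0.0399%) lower, and 20 of the 60 were members of the 4 amino acid lists. In the regulator list 11 of 20 rose after 24 h, with median changes of 0.72 from 0 h to 24 h and 0.86 from 24 h to 48 h. Trib3 had means of 139, 149 and 332 at 4, 12 and 24 h, and its change from 24 h to 48 h was 2.44 ± 0.21, limma adjusted p = 2.12e-05. Ddit3 had means of 242, 226 and 297 at 4, 12 and 24 h (2.33 ± 0.22, limma adjusted p = 4.81e-05). Ppp1r15a stayed between 283 and 435 up to 24 h and then rose (1.92 ± 0.23, limma adjusted p = 0.000435), as did Cebpb, from a 24 h mean of 805 (1.34 ± 0.14, limma adjusted p = 6.46e-05). For Trib3, Ddit3, Ppp1r15a and Cebpb the larger part of the fitted difference from 0 h thus arose after 24 h. The parts before and after 24 h were not tested against each other.

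Other members arrived earlier. Asns had means of 3578, 4579 and 5978 at 4, 12 and 24 h, and its change from 24 h to 48 h was 0.19 ± 0.20, limma adjusted p = 0.775. Psat1 measured 4337, 4842 and 6284 at 4, 12 and 24 h (0.13 ± 0.13, limma adjusted p = 0.767), and Mthfd2 1839.5, 2394 and 3301 at 4, 12 and 24 h (0.29 ± 0.14, limma adjusted p = 0.446). In the enzyme list 8 of 19 were above 0 h already at 24 h, where the share of all genes was not counted. After 24 h 5 of the list rose (Cth, Aldh1l2, Pck2, Psph and Bcat1). Of the transporters 2 rose after 24 h (Slc1a4 and Slc6a9), and of the synthetases 2 (Sars and Rars). Without 1 array the A count of 85 lay between 34 (without 48 h replicate 1) and 77, with 46 and 36 without 24 h replicates 1 and 2 and 37 without 48 h replicate 3. This comparison and that with 0 h share the 48 h arrays.

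**Figure D3:**
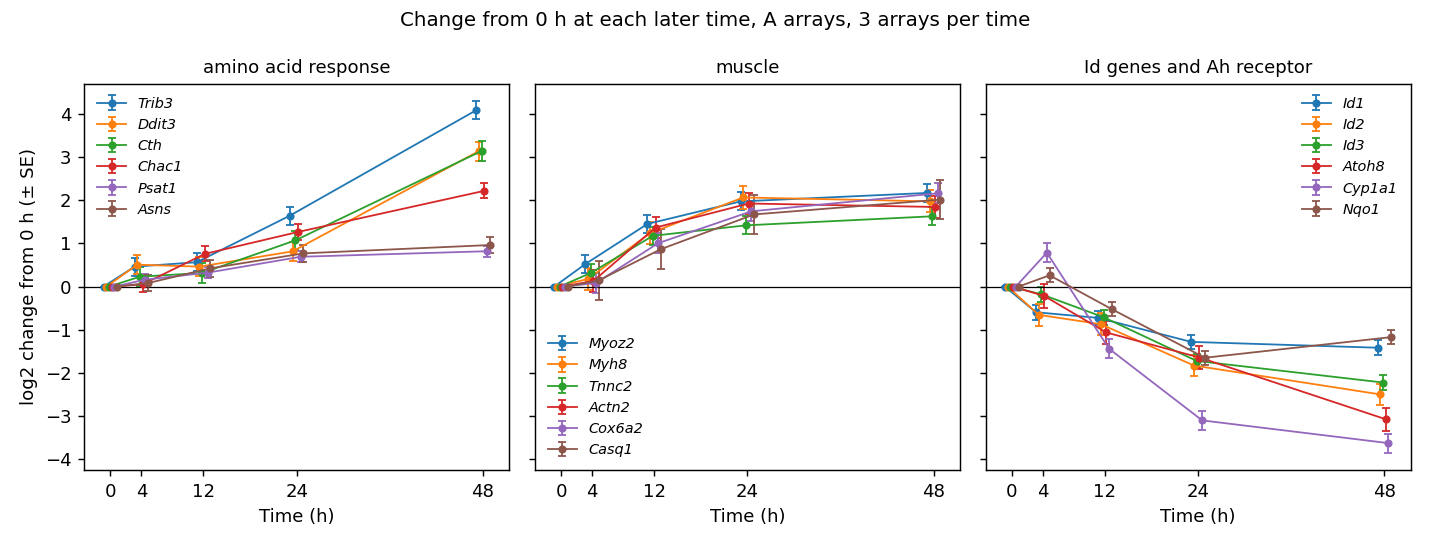
Log2 change from 0 h (± SE, 3 arrays per time) at 4, 12, 24 and 48 h for 6 genes each of the amino acid response, of muscle, and of the Id and aryl hydrocarbon (Ah) receptor lists, with points moved slightly sideways for legibility. Trib3, Ddit3 and Cth climb most steeply from 24 h to 48 h, the muscle genes are flat over that interval, and Cyp1a1 lies above 0 at 4 h and below it from 12 h.

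Genes of the contractile apparatus were higher at 48 h in part. Among thick filament genes, 6 of 10 tested rose and none fell (median 0.69). Myh7, the slow myosin heavy chain, had intensities of 214, 179.9 and 258 at 0 h and 1030.4, 1130.4 and 786 at 48 h (log2 change 2.10 ± 0.22, limma adjusted p = 1.68e-05), and Myh8, the perinatal chain, 281, 375 and 509 at 0 h and 1521, 1376 and 1723 at 48 h (log2 change 1.98 ± 0.26, limma adjusted p = 0.000121). No 0 h array of either reached a 48 h value. Embryonic Myh3 averaged 4996 ± 59 at 0 h and 7188 ± 184 at 48 h (0.52 ± 0.18, adjusted p = 0.0998) and adult fast Myh1 2437 ± 547 at 0 h and 2899 ± 717 at 48 h (0.24 ± 0.31). Neither passed. The adult fast chains Myh2 and Myh4 were too dim to be tested, with no array above 42.6 for Myh2 or 26.2 for Myh4. The myosin-binding Mybph (1.05 ± 0.19) and Mybpc1 on the B arrays (2.01 ± 0.42) rose, as did the light chains Myl4 (0.76 ± 0.16) and Myl1 (0.63 ± 0.15). Mybpc1 kept its call only without 0 h replicate 3.

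Thin filament genes rose in 3 of 16 cases (median 0.17), and in 6 under quantile normalization (median 0.30). These were the fast troponins: Tnnc2 measured 2189, 2140.2 and 3476 at 0 h and 8109, 8089.7 and 7459 at 48 h (log2 change 1.63 ± 0.21, limma adjusted p = 9.9e-05), Tnni2 measured 1857, 2359 and 2157 at 0 h and 6622, 8243 and 5716 at 48 h (log2 change 1.67 ± 0.23, limma adjusted p = 0.000202), and Tnnt3 changed by 0.87 ± 0.24, a call kept only without 48 h replicate 3. The actins did not pass, with Acta1 at 12769 ± 494 at 0 h and 13902 ± 1642 at 48 h (0.12 ± 0.14) and cardiac actin Actc1 at 18339.7 ± 3948 at 0 h and 14435 ± 2394 at 48 h (-0.33 ± 0.18). The tropomyosins Tpm1, Tpm2 and Tpm3 changed by 0.05, -0.43 and -0.32, none of them past the threshold.

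At the Z-disc and M-band, where filaments are anchored, 9 of 24 genes rose and none fell (median 0.62). Myoz2, a calcineurin-binding Z-disc protein, measured 336, 454 and 497 at 0 h and 2002, 2151 and 1759 at 48 h (log2 change 2.17 ± 0.21, limma adjusted p = 5.24e-06), and Actn2, the alpha-actinin of all fibres, 702, 864 and 1214 at 0 h and 3623, 3473 and 2829.7 at 48 h (log2 change 1.85 ± 0.25, limma adjusted p = 0.00016). Neither overlapped between the times. The fast alpha-actinin Actn3 (1.87 ± 0.30), Smpx (1.65 ± 0.26), Fhl1 (1.52 ± 0.29), Myom2 (1.27 ± 0.29) and Csrp3 (1.22 ± 0.16) rose as well, and Myot (1.77 ± 0.48) and Tcap (1.34 ± 0.36) did so in calls lost without most single arrays. Des (-0.31 ± 0.15) and Ttn (-0.14 ± 0.39) did not pass. In the list of stretch-responsive muscle genes 3 of 6 rose, Csrp3, Lmcd1 and Ankrd23. Ankrd23, an ankyrin repeat protein at the titin spring, was measured on the B arrays at 41.2, 83.5 and 44.1 at 0 h and 2152, 1919 and 1704 at 48 h (log2 change 4.79 ± 0.62, limma adjusted p = 0.000688). Its relatives Ankrd1 (0.39 ± 0.21) and Ankrd2 (0.76 ± 0.57) did not pass.

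Of 19 genes of the triad, which couples excitation to calcium release, 5 rose (median 0.56), and 3 did so without 0 h replicate 1. The calcium channel subunit Cacna1s measured 201, 174 and 252 at 0 h and 476, 547 and 572 at 48 h (log2 change 1.29 ± 0.24, limma adjusted p = 0.00238), and Casq2, a calcium buffer, 1804, 2109 and 2829 at 0 h and 5016, 5053 and 4601 at 48 h (log2 change 1.14 ± 0.23, limma adjusted p = 0.00482). Casq1 had a wide 0 h group, at 104, 172 and 468 at 0 h and 955, 1025 and 702 at 48 h (log2 change 2.02 ± 0.46, limma adjusted p = 0.012), and lost its call without 0 h replicate 1. Atp2a1, the fast calcium pump (1.09 ± 0.23), rose, and Cacnb1 (0.74 ± 0.21) did so in a call lost without any 1 array. The release channel Ryr1 did not pass (0.84 ± 0.28, adjusted p = 0.0794). In energy metabolism 7 of 19 muscle isoforms rose (median 0.46): Cox6a2, a cytochrome oxidase subunit of muscle, measured 492, 536 and 505 at 0 h and 2197, 2839 and 2062 at 48 h (log2 change 2.16 ± 0.23, limma adjusted p = 1.94e-05), and Fabp3 (2.06 ± 0.36), Cd36 (2.04 ± 0.30), Cox8b (1.68 ± 0.31), Pgam2 (1.46 ± 0.28), Mb (1.43 ± 0.28) and Pygm (1.08 ± 0.22) also rose. Muscle creatine kinase, Ckm, did not pass (0.46 ± 0.59).

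None of these muscle lists held a gene that differed between 24 h and 48 h, in limma. Against 0 h, 6 of 10 thick filament, 10 of 24 Z-disc, 8 of 19 triad and 8 of 19 energy genes were already higher at 24 h. The share of all genes higher at 24 h was not counted. Myoz2 had means of 616, 1199 and 1776 at 4, 12 and 24 h, and its change from 24 h to 48 h was 0.20 ± 0.21, limma adjusted p = 0.788. Tnnc2 had means of 3171, 5799.6 and 7057 at 4, 12 and 24 h (0.21 ± 0.21, limma adjusted p = 0.77). Median changes from 24 h to 48 h were 0.03 for the thick filament and -0.22 for the triad list.

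**Figure D4:**
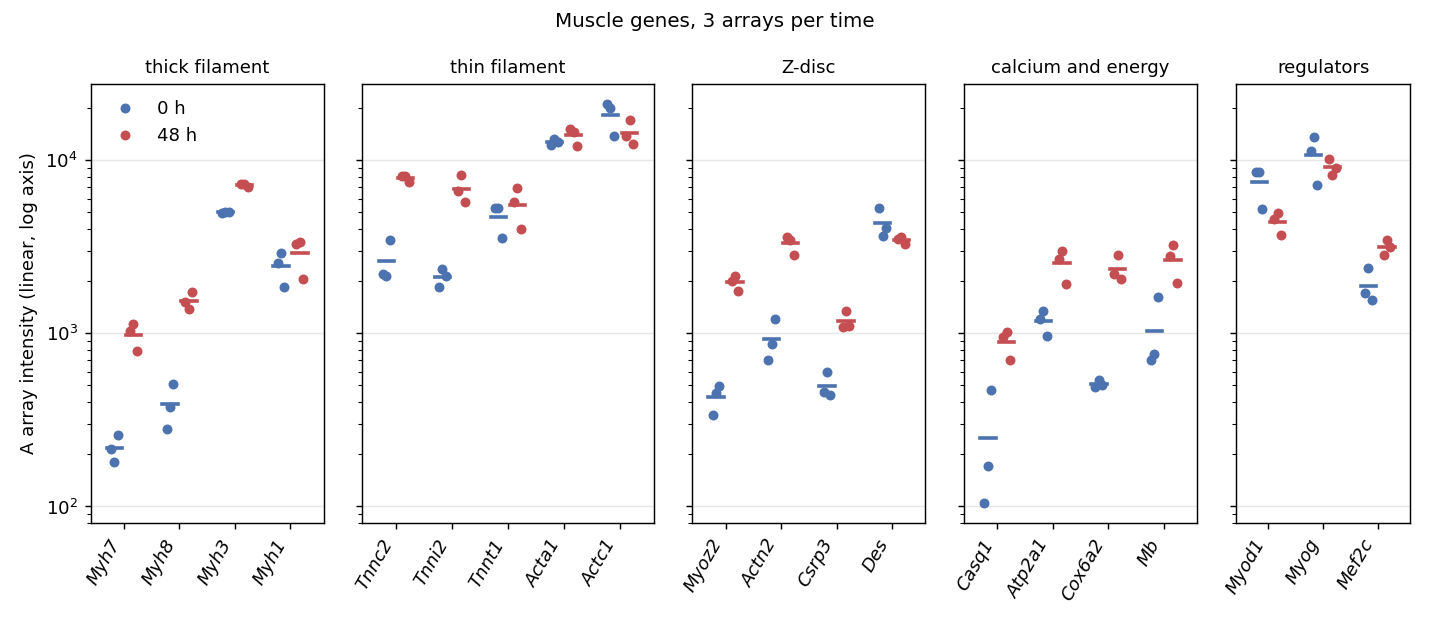
Intensity of 20 muscle genes on each A array at 0 h (blue) and 48 h (red), on a log axis, with a bar at the mean of 3 arrays. Myh7, Myh8, Myoz2, Actn2 and Cox6a2 lie higher on all 48 h arrays, while the 2 groups overlap for Acta1, Actc1, Myh1 and Myog.

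The neuromuscular junction list had no call among 12 genes in limma, with 2 at an unadjusted p under 0.05. The receptor subunits Chrna1 (-0.44 ± 0.19) and Chrng (0.28 ± 0.46) and the kinase Musk (-0.10 ± 0.23) did not pass. In the dystrophin complex and repair list 2 of 9 rose, the protease Capn3 (1.46 ± 0.26) and caveolin Cav3 (1.26 ± 0.29). Only 1 passed without 0 h replicate 1 or 48 h replicate 1.

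Among 16 regulators of the muscle programme 2 rose and 2 fell (median 0.00, with a sign that depends on scaling). Myod1 had intensities of 8555, 8526 and 5251 at 0 h and 4598, 4948 and 3693 at 48 h (log2 change -0.73 ± 0.18, limma adjusted p = 0.0232), a call lost without 0 h replicates 1 or 2 and 48 h replicates 1 or 3. Replicate 3 at 0 h lay close to the 48 h group. Myog measured 10695 ± 3219 at 0 h and 9128 ± 992 at 48 h and did not pass (-0.19 ± 0.24), nor did Pax7, the satellite cell factor (-0.27 ± 0.18). Mef2c rose (0.76 ± 0.21, lost without any 1 array but 0 h replicate 2), Pitx3 fell (-0.59 ± 0.14) and Spry1, a receptor feedback inhibitor of quiescent satellite cells, rose at 817, 846 and 484 at 0 h and 1528, 1579.7 and 1398 at 48 h (log2 change 1.09 ± 0.22, limma adjusted p = 0.00463). The list's count of 4 was 1 without 0 h replicate 1, 48 h replicate 1 or 48 h replicate 3. It was 2 when 0 h replicate 3 was left out. In the fusion list the adhesion molecules Ncam1 (0.88 ± 0.18) and Jam2 (0.94 ± 0.22) rose and Myo10 fell (-0.52 ± 0.14) among 20, whereas the fusion protein Mymk did not pass (0.44 ± 0.28). Only 1 of those 3 passed without 0 h replicate 2, 48 h replicate 1 or 48 h replicate 3.

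Id1, Id2 and Id3 fell with other BMP targets. Of 12 tested, 6 were lower and none higher (median -0.79), and this count moved by less than 1.5 times without any 1 array. It was 3 with the filter at the 60th percentile, which leaves fewer genes to test. Id3 had intensities of 4198, 3939 and 4066 at 0 h and 969, 1053 and 618 at 48 h (log2 change -2.22 ± 0.17, limma adjusted p = 5.93e-07), Id2 2295, 1794 and 1859.6 at 0 h and 394, 509.6 and 185 at 48 h (log2 change -2.50 ± 0.25, limma adjusted p = 1.06e-05) and Id1 3897, 3522 and 3222 at 0 h and 1516, 1511 and 989.9 at 48 h (log2 change -1.42 ± 0.17, limma adjusted p = 4.87e-05). All 48 h arrays were below all 0 h arrays in these 3 genes, and the 2 other probe sets of Id2 fell too. Id4 did not pass (-0.23 ± 0.43). Atoh8, a helix-loop-helix factor that BMP signals induce, measured 324, 329 and 285 at 0 h and 13.9, 38.3 and 20.4 at 48 h (log2 change -3.08 ± 0.27, limma adjusted p = 1.94e-06) and went on falling after 24 h (-1.43 ± 0.27, limma adjusted p = 0.02). The inhibitory Smad6 measured 353, 359.7 and 385 at 0 h and 202, 176 and 192 at 48 h (log2 change -0.89 ± 0.18, limma adjusted p = 0.00625), and Hey1 fell by 1.79 on the log2 scale, a call lost without 0 h replicate 1. Smad7 (-0.29 ± 0.23), Msx1 (-0.52 ± 0.28) and Msx2 (-0.68 ± 0.28) did not pass.

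The ligand Bmp4 went the opposite way to those targets, at 61.1, 78.2 and 66.7 at 0 h and 280.3, 207 and 317 at 48 h (log2 change 1.73 ± 0.30, limma adjusted p = 0.00178). Of 13 TGF-beta family ligands and antagonists it was the one that rose, and Ltbp2, a latent TGF-beta binding protein, the one that fell (-1.09 ± 0.20). Grem1, a BMP antagonist, differed between 24 h and 48 h but not from 0 h (0.16 ± 0.21). In the IGF system Igfbp3 rose (1.42 ± 0.29) and Igfbp2 fell (-1.05 ± 0.26) among 12 genes, and 1 of those 2 remained without any 1 array but 0 h replicate 3. The Notch list had Lfng (-0.67 ± 0.19) and Hey1 lower and Notch3 higher (0.58 ± 0.16) among 14. None of the 3 passed without 0 h replicate 1, and 1 did without 0 h replicate 2, 48 h replicate 1 or 48 h replicate 2.

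Genes of DNA synthesis fell in 11 of 37 cases and rose in none (median -0.50), and 26 of the 37 had an unadjusted p under 0.05. Pcna, the sliding clamp of the replication fork, had intensities of 10344, 10255 and 9589.9 at 0 h and 7216, 7273 and 6568 at 48 h (log2 change -0.52 ± 0.10, limma adjusted p = 0.00273). The helicase subunit Mcm7 measured 5421, 4979 and 5956 at 0 h and 3412, 3241 and 2863 at 48 h (log2 change -0.78 ± 0.14, limma adjusted p = 0.0018), and Rrm2, of ribonucleotide reductase, 4857, 4089.6 and 4413 at 0 h and 2837, 2412 and 2492 at 48 h (log2 change -0.78 ± 0.14, limma adjusted p = 0.00218). The groups of these 3 genes did not overlap. Mcm10 (-0.78 ± 0.16), Rpa2 (-0.76 ± 0.14), Mcm6 (-1.04 ± 0.23) and cyclin E, Ccne1 (-0.99 ± 0.22), fell, with Cdc6, Cdc45, Cdt1 and Rrm1. The count was 6 without 0 h replicate 3 or 48 h replicate 3. At 24 h 10 of the list were already lower than at 0 h, and the share of all genes lower at 24 h was not counted.

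Mitosis genes fell in 3 of 34 cases (median -0.32): Ncapd2 (-0.80 ± 0.15), the checkpoint kinase Bub1b (-0.62 ± 0.15) and Cdk1 (-0.53 ± 0.15). The count was 1 without 0 h replicates 1 or 3 and 48 h replicates 1 or 3. Mki67, the usual marker of dividing cells, did not pass (-0.42 ± 0.28, adjusted p = 0.43), and neither did Top2a (-0.45 ± 0.17). Of 18 cell cycle inhibitors and D cyclins, Ccnd2 rose at 328, 369 and 373 at 0 h and 1126, 964 and 1188 at 48 h (log2 change 1.57 ± 0.21, limma adjusted p = 0.000148), and so did Gadd45a (1.36 ± 0.32), which lost its call without 0 h replicate 3 and 48 h replicates 1 or 3. Cdkn1a, which encodes p21, measured 8131 ± 1464 at 0 h and 8293 ± 907 at 48 h (0.04 ± 0.19) and did not pass.

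Targets of p53 rose in 6 of 16 cases and fell in none (median 0.27). Eda2r, a death receptor of the TNF family measured on the B arrays, had intensities of 1104, 1008 and 1544 at 0 h and 3369, 3339 and 2639 at 48 h (log2 change 1.36 ± 0.16, limma adjusted p = 0.000305), and it differed from 24 h as well (0.98 ± 0.16, limma adjusted p = 0.026). The BH3 proteins Pmaip1 (1.14 ± 0.22) and Bbc3 (0.80 ± 0.16), the nuclease Aen (0.64 ± 0.13), Plk2 (0.38 ± 0.11) and Sesn2, counted above too, rose. Pmaip1, Bbc3 and Sesn2 are also known targets of ATF4 or CHOP, and what raised the 6 genes here was not tested. Of the most used p53 targets, Mdm2 (0.24 ± 0.16), Ccng1 (-0.10 ± 0.20) and Cdkn1a did not pass.

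Genes of the extracellular matrix rose in several lists. Of 26 collagen genes and their processing enzymes 9 rose and none fell (median 0.46), with 5 without 0 h replicate 1, 4 without 48 h replicate 3 and 5 under median scaling. Col5a1, a chain that starts collagen fibrils, measured 1024, 869 and 616 at 0 h and 1891, 1789.6 and 2339.9 at 48 h (log2 change 1.27 ± 0.18, limma adjusted p = 0.000242), and the microfibril chains Col6a3 (1.30 ± 0.20) and Col6a2 (1.51 ± 0.34) rose too. Col5a3 (1.41 ± 0.32), Col16a1 (0.88 ± 0.22), Col3a1 (0.57 ± 0.12) and Col5a2 (0.52 ± 0.13) followed. Col1a2 did not pass (-0.05 ± 0.26). Col1a1 was too dim to be tested, at 37.8, 31.9 and 34.0 at 0 h and 115, 283 and 112 at 48 h, without overlap.

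Among elastic fibre and basement membrane genes 4 of 18 rose and 1 fell. Fbln5, which organises elastic fibres, measured 61.6, 9.1 and 50.7 at 0 h and 335, 349 and 446 at 48 h (log2 change 2.94 ± 0.33, limma adjusted p = 2.36e-05). The cross-linking oxidases Lox, at 379, 406 and 395 at 0 h and 842, 707 and 2063 at 48 h (log2 change 1.41 ± 0.31, limma adjusted p = 0.0108), and Loxl1 (1.00 ± 0.13) rose, with replicate 3 of Lox far above the other 48 h arrays. Nid2 rose (0.77 ± 0.14) and Fbn2 fell (-0.88 ± 0.21). In the matricellular list Postn measured 12.6, 11.9 and 66.5 at 0 h and 209, 193 and 482 at 48 h (log2 change 2.82 ± 0.40, limma adjusted p = 0.000248) and Ccn4 rose (1.20 ± 0.18), whereas Smoc2, a calcium-binding matrix protein, fell to near background at 266, 391 and 416 at 0 h and 46.8, 3.4 and 19.8 at 48 h (log2 change -3.38 ± 0.47, limma adjusted p = 0.000202). Among proteases and inhibitors 4 of 14 rose and 1 fell, and 2 of those 5 passed without 48 h replicate 3. Adamts1 (1.61 ± 0.24), Adamts5 (1.69 ± 0.26), Timp3 (1.37 ± 0.30, with its 2 other probe sets) and Plat (0.73 ± 0.18) rose, and Timp2 fell (-0.46 ± 0.11), a call lost without 0 h replicate 1 or 48 h replicate 3.

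Markers of other cells rose in part, and the fibroblast marker Col3a1 is itself one of the collagen genes counted above. The 10 fibroblast markers on the A arrays summed to 3452 to 3808 at 0 h and 4569 to 4902 at 48 h, a sum led by Col3a1. Fbln1, the other one tested on the A arrays, had means of 815 at 0 h and 655 at 48 h and did not pass (-0.30). Of those 10, Dcn, Lum, Thy1, Pdgfra and 4 others lay too low to be tested, and on the B arrays 4 fibroblast markers summed to 2589 to 2829 and 2141 to 3268, with none past the threshold. Smooth muscle and pericyte markers summed to 12954 to 19494 and 16556 to 19030, and 4 of 8 tested rose: Tagln (1.10 ± 0.25), Pdgfrb (1.29 ± 0.18), Mcam (1.33 ± 0.31) and Notch3. Of these, 1 passed without 0 h replicate 1 and 2 without 0 h replicate 2 or 48 h replicate 3. Acta2, the brightest of the list, measured 14160.2 and 12338 on average and did not pass, and neither did Smtn, Cspg4 and Rgs5. Myh11, with means of 11.6 and 18.2, and Cnn1, with 21.8 and 19.9, were too low to be tested. The part of these cells in the matrix changes was not tested. Endothelial markers (10, summing to 441 to 689 and 541 to 654), leukocyte markers (11, 728 to 1004 and 657 to 981) and adipocyte markers (5, 138 to 183 and 132 to 216) overlapped between the times.

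**Figure D5:**
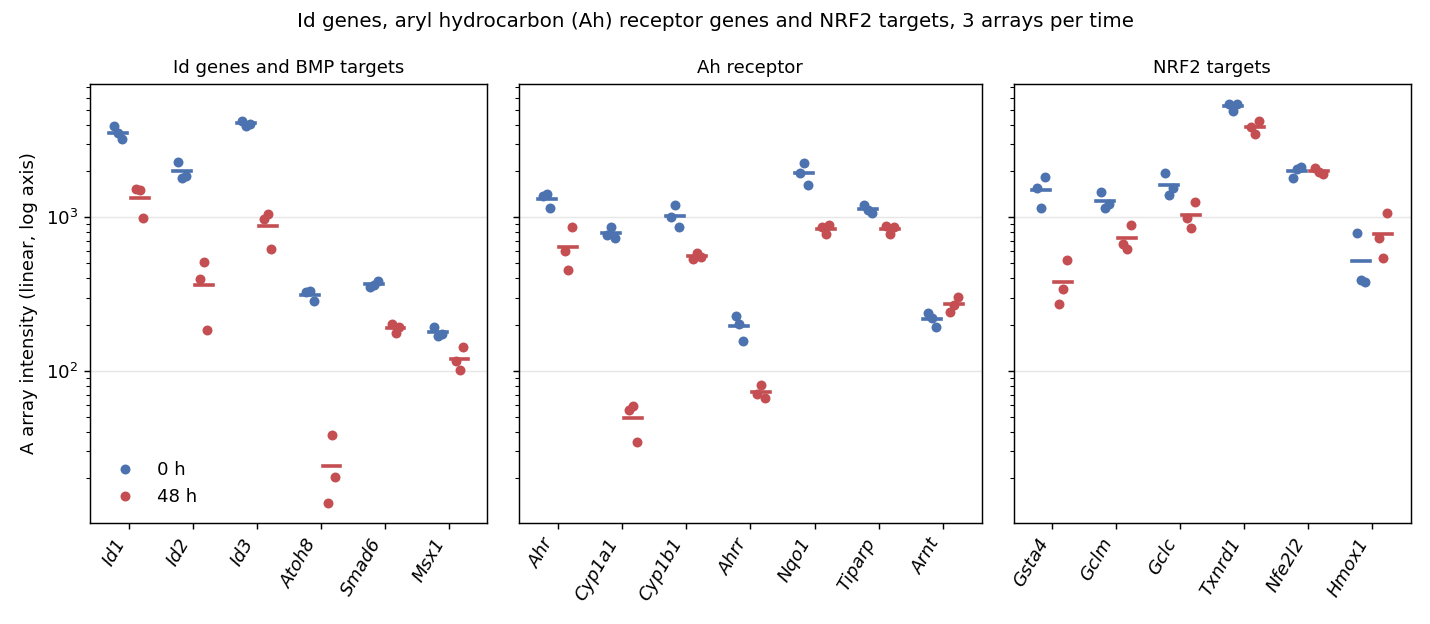
Intensity of 19 genes of the Id, aryl hydrocarbon (Ah) receptor and NRF2 lists on each A array at 0 h (blue) and 48 h (red), on a log axis, with a bar at the mean of 3 arrays. Id1, Id2, Id3, Atoh8 and Cyp1a1 lie lower on all 48 h arrays, while Nfe2l2 and Hmox1 overlap.

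The aryl hydrocarbon receptor and its targets fell in 5 of 8 cases and rose in none (median -0.95). Cyp1a1, the most used readout of that receptor, had intensities of 769, 860.1 and 731 at 0 h and 55.8, 58.9 and 34.4 at 48 h (log2 change -3.63 ± 0.22, limma adjusted p = 5.17e-08). All 48 h arrays lay far below the lowest 0 h array. Ahrr, the receptor's own repressor, measured 228, 200.4 and 158 at 0 h and 70.5, 81.3 and 67 at 48 h (log2 change -1.24 ± 0.24, limma adjusted p = 0.0045), and Cyp1b1 996, 1207 and 864 at 0 h and 533, 581 and 551 at 48 h (log2 change -0.85 ± 0.18, limma adjusted p = 0.00731). Nqo1, a quinone reductase that answers to both this receptor and NRF2, measured 1928, 2235 and 1622 at 0 h and 860.4, 779.6 and 884 at 48 h (log2 change -1.17 ± 0.16, limma adjusted p = 0.000168). The receptor gene itself, Ahr, was lower too, at 1364, 1423 and 1155 at 0 h and 604, 456 and 862 at 48 h (log2 change -1.06 ± 0.18, limma adjusted p = 0.00162), though its other probe set did not pass. Tiparp (-0.42 ± 0.13, adjusted p = 0.061), Aldh3a1 (-0.61 ± 0.25) and the partner Arnt (0.30 ± 0.22) did not pass. Means of Cyp1a1 were 1369, 293 and 77.4 at 4, 12 and 24 h, and those of Cyp1b1 1746, 613 and 454 at 4, 12 and 24 h. At 24 h 7 of the 8 were lower than at 0 h, and the share of all genes lower at 24 h was not counted. None of the 8 differed between 24 h and 48 h in limma, where the median change was 0.28.

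Of 22 NRF2 targets and glutathione genes 8 fell and none rose (median -0.36). Gsta4, a transferase that clears lipid aldehydes, measured 1538, 1146 and 1815 at 0 h and 271, 338 and 526 at 48 h (log2 change -1.97 ± 0.21, limma adjusted p = 1.79e-05). Gclm and Gclc are the subunits of the enzyme that limits glutathione synthesis. Gclm measured 1451, 1146 and 1222 at 0 h and 671, 625 and 889 at 48 h (log2 change -0.80 ± 0.15, limma adjusted p = 0.00296), and Gclc changed by -0.64 ± 0.17. Srxn1 (-0.58 ± 0.16), Gsr (-0.51 ± 0.14), Txnrd1 (-0.46 ± 0.11), the metallothionein Mt2 (-0.94 ± 0.26) and Nqo1 also fell. The count dropped to 3 when 0 h replicate 1 or 48 h replicate 2 was left out, and to 4 when 48 h replicate 1 was. It was 3 with only the 2 times in the fit. Hmox1, a further NRF2 target (0.60 ± 0.29), Nfe2l2, which encodes NRF2 (0.00 ± 0.11), and its inhibitor Keap1 (-0.06 ± 0.16) did not pass.

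Immediate early genes, which answer growth signals within minutes, went both ways, with 4 of 23 higher and 6 lower. Egr2 had intensities of 662, 639 and 646 at 0 h and 157, 131 and 190.3 at 48 h (log2 change -1.94 ± 0.22, limma adjusted p = 3.49e-05), and Junb 869, 743 and 802 at 0 h and 415, 415 and 400.2 at 48 h (log2 change -0.94 ± 0.14, limma adjusted p = 0.000407). Klf10 (-0.84 ± 0.16), Fos (-0.82 ± 0.22), Egr1 (-0.81 ± 0.20) and Jun (-0.52 ± 0.11) were also lower. Klf4, a factor of growth arrest, rose at 273, 286 and 436 at 0 h and 1414, 863 and 1649 at 48 h (log2 change 1.91 ± 0.22, limma adjusted p = 3.49e-05), most of it after 24 h (1.53 ± 0.22, limma adjusted p = 0.00222), and its relatives Klf2 (0.98 ± 0.21) and Klf6 (0.66 ± 0.16) rose with Ier5 (0.53 ± 0.14). The count of 10 was 6 without 48 h replicate 3, and the 4 higher calls were 2 under median scaling or with only the 2 times in the fit. Feedback inhibitors of receptor signalling were higher in 3 and lower in 4 of 21 cases. Rgs4, which turns off G proteins, measured 338, 395 and 234 at 0 h and 15.2, 44.2 and 39.5 at 48 h in 1 probe set (log2 change -2.81 ± 0.29, limma adjusted p = 1.39e-05), and -2.02 was the log2 change of its other, brighter one. Errfi1 (-1.07 ± 0.23), Spry2 (-0.66 ± 0.13) and Dusp4 on the B arrays (-0.86 ± 0.16) fell. Lrig1 (1.60 ± 0.19), Spry1 and Dusp14 (0.96 ± 0.18) rose. The count of 7 was 4 without 0 h replicate 1, where Dusp4 was among the calls lost.

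Cytosolic and mitochondrial chaperones fell in 6 of 19 cases (median -0.26), led by Dnaja1 (-0.70 ± 0.15) and Hsph1 (-0.61 ± 0.11), whereas 3 of 7 small heat shock proteins rose. Hspb2 (1.34 ± 0.27), Hspb7 (0.90 ± 0.23) and Hspb3 (0.85 ± 0.22), all enriched in muscle, were those 3, and 1 of them passed without 0 h replicate 1 or any 48 h array. The chaperone count of 6 was 2 without 0 h replicate 1 and 3 without 0 h replicate 3 or 48 h replicates 1 or 3, and 3 with no filter, no intensity trend or only the 2 times. Of 25 FOXO, atrophy and glucocorticoid targets 6 rose and 2 fell. Pdk4, which blocks glucose oxidation, fell at 812, 875 and 1042 at 0 h and 169, 177 and 206 at 48 h (log2 change -2.21 ± 0.19, limma adjusted p = 1.51e-06). Txnip (1.41 ± 0.27), Cebpd (1.19 ± 0.28), Tsc22d3 (1.05 ± 0.18) and Klf9 (0.80 ± 0.17) rose, with Gadd45a and Per1 (0.62 ± 0.18), and Mt2 fell. The ubiquitin ligase of atrophy, Fbxo32, did not pass (-0.53 ± 0.22). That count of 8 was 5 without 0 h replicates 1 or 3 or 48 h replicate 1, and 4 without 48 h replicate 3.

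Cytosolic ribosomal proteins (24 genes, median -0.19), ribosome biogenesis (26, 0.10) and oxidative phosphorylation (31, -0.25) had no call in limma, with 5, 5 and 12 genes at an unadjusted p under 0.05. Over all probe sets tested, 2670 of 13577 on A and 1397 of 13507 on B had such a p. Under median scaling 1 gene of oxidative phosphorylation was lower. The median of the ribosomal proteins was 0.01 under quantile normalization. Nor did the 9 Hox genes give a call, with 2 at an unadjusted p under 0.05. Of 28 proteasome genes Psma1 fell (-0.49 ± 0.10), and of 25 sterol and fatty acid synthesis genes Fasn (-0.41 ± 0.12), whose call was lost without any 1 array. Metabolic lists with more calls were fatty acid uptake and oxidation, and hypoxia and glycolysis. In the first 2 of 24 rose, Cd36 and Fabp3 of the energy list, and 3 fell, Pdk4, Acadm (-0.62 ± 0.16) and Hadh (-0.46 ± 0.11). The count was 3 without 0 h or 48 h replicate 3. In the hypoxia and glycolysis list Vegfa (0.92 ± 0.25), Ndrg1, Ero1a and P4ha1 (0.55 ± 0.16) rose and Pkm fell (-0.38 ± 0.11) among 23. Only 2 of the 5 passed without 0 h replicate 1 or 48 h replicates 1 or 3, and 3 without 0 h replicate 3.

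Secreted factors included some of the largest single changes. Ptx3, a soluble pattern-recognition protein, had intensities of 72.1, 146 and 116 at 0 h and 1554, 971 and 2796 at 48 h (log2 change 3.73 ± 0.27, limma adjusted p = 4.29e-07). Its 48 h arrays spread widely among themselves but lay far above 0 h. Vegfc, a lymphatic growth factor, fell on both types, at 182, 209.6 and 239 at 0 h and 57.2, 66.1 and 86.4 at 48 h on the A arrays (log2 change -1.40 ± 0.24, limma adjusted p = 0.00126) and 2388, 2554 and 2723 at 0 h and 892, 1128 and 1108 at 48 h on the B arrays (log2 change -1.29 ± 0.14, limma adjusted p = 0.000205). Cx3cl1, a membrane-bound chemokine, fell at 1382, 1428 and 1748 at 0 h and 586, 577 and 636 at 48 h (log2 change -1.31 ± 0.15, limma adjusted p = 3.22e-05), and the hormone Sct at 343, 321 and 107 at 0 h and 28.7, 38.5 and 31.5 at 48 h (log2 change -2.34 ± 0.47, limma adjusted p = 0.00508). Tapbp, of antigen presentation, was lower (-0.84 ± 0.15) and the only call of 10 interferon and antigen genes.

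Neuronal markers moved in both directions. The neurofilament genes Nefm, at 304, 264 and 251 at 0 h and 60.6, 40.7 and 31.4 at 48 h (log2 change -2.29 ± 0.30, limma adjusted p = 0.000116), and Nefl, at 325, 261 and 309 at 0 h and 80.0, 85.2 and 13.9 at 48 h (log2 change -2.24 ± 0.38, limma adjusted p = 0.00139), fell, and Nefl fell on the B arrays as well (-1.28 ± 0.22). The tubulin gene Tubb3 (0.93 ± 0.16) and Dcx (3.32 ± 0.78, lost without 4 of the 6 single arrays) rose. The 10 neuron markers of the A arrays summed to 970 to 1396 at 0 h and 1358 to 1431 at 48 h, and the 4 of the B arrays to 3311 to 4104 and 2168 to 2649. Of the 10, Snap25, Syt1, Rbfox3, Nefh and Gap43 were too low to be tested and Stmn2 did not pass. On the B arrays Syt1, with means of 824 and 691, and Rbfox3, with 1228 and 1116, did not pass, and Snap25 was too low to be tested. Bone and cartilage markers summed to 860 to 907 and then 462 to 638 on the A arrays, where Col2a1 fell (-1.19 ± 0.25). On the B arrays they summed to 892 to 2190 and then 192 to 559. The largest falls in mean on A were those of Col2a1 (328 to 135) and Dmp1 (145 to 39.8), the latter too low to be tested there. Sp7 did not pass (-0.32). Ibsp, Alpl, Sox9 and Acan were too low to be tested on A, and Sox9 also on B. Alpl and Sox9 had lower means at 48 h on A. Acan, Ibsp and, on B, Sox9 had higher ones. Dmp1, a bone matrix protein, fell on the B arrays at 1026, 862 and 2123 at 0 h and 334, 264 and 152 at 48 h (log2 change -2.30 ± 0.39, limma adjusted p = 0.00607), where its other probe set fell too. The part of such cells in these changes was not tested. Markers of Schwann cells (2301 to 2958 and 1895 to 2517), epithelium (323 to 492 and 317 to 514) and red blood cells (15.1 to 85.2 and 30.2 to 77.7) overlapped between the times on the A arrays.

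Among the other largest changes of the A arrays, Pdlim2, an actin-binding adaptor, rose at 258, 320.4 and 302 at 0 h and 1912, 1861 and 1427 at 48 h (log2 change 2.49 ± 0.21, limma adjusted p = 1.38e-06). Fxyd6, a small regulator of the sodium pump, measured 6.6, 13.4 and 132 at 0 h and 369, 493 and 348 at 48 h (log2 change 3.17 ± 0.51, limma adjusted p = 0.000817), with 0 h replicate 3 nearest to the 48 h group, while the pump's beta subunit Atp1b1 fell (-0.78 ± 0.13). Nnmt, which methylates nicotinamide, rose (2.51 ± 0.29), as did the muscle LIM protein Lmcd1 (2.49 ± 0.34). Tafa5 (-2.44 ± 0.33), Selp (-2.38 ± 0.42), Hip1r (-2.10 ± 0.27) and the chemokine receptor Cxcr4 (-1.98 ± 0.24) fell. Tsc22d1 fell in 1 probe set (-1.64 ± 0.30), and its 5 others did not pass.

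The B arrays, which carry less well characterised transcripts, added a few genes, each of which kept its call without any 1 array, the one labelled leg muscle included. Snai2, a transcription factor of the Snail family, rose at 398, 868 and 900.2 at 0 h and 6620.4, 4612 and 4752 at 48 h (log2 change 2.92 ± 0.47, limma adjusted p = 0.00462). Klhl30, an adaptor of muscle, measured 956, 834 and 1289.6 at 0 h and 4461, 3965 and 4314 at 48 h (log2 change 2.05 ± 0.20, limma adjusted p = 6.76e-05). Fam20a (3.77 ± 0.52), Mamdc2 (2.22 ± 0.33), the calcium channel gene Cacna1b (2.17 ± 0.37) and Tceal7 (2.12 ± 0.31) rose too. Nrn1, a membrane-anchored neurotrophic protein, fell at 7345, 7341 and 11272 at 0 h and 2223, 2058 and 1400.0 at 48 h (log2 change -2.18 ± 0.22, limma adjusted p = 9.76e-05), with Dynap (-1.65 ± 0.22), the NF-kB inhibitor Nfkbia (-1.17 ± 0.19), Gse1 (-1.07 ± 0.18) and the potassium channel Kcnf1 (-0.99 ± 0.16). Ifi27 rose in 1 probe set (2.81 ± 0.43) and did not pass in its brighter one (0.36 ± 0.16, adjusted p = 0.469).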

How the data were processed

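Total RNA of cultured mouse extraocular muscle was hybridised to Affymetrix A and B arrays by the manufacturer's protocol, per the labels. The deposited values are linear intensities scaled array by array, so that the mean without the top and bottom 2% was 500.2 for A and 500.1 for B. For background correction, probe summary and software, the sources used here give nothing. Medians of the 12 arrays compared ran from 155.2 to 177.6 (A) and 279 to 297.7 (B). Groups were taken from the titles.

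Values were taken as log2(intensity + 16) and fitted with limma 3.58.1 (R 4.3.3; lmFit, eBayes with an intensity trend) over all 15 arrays of a type, with 1 mean per time, and A and B arrays were tested apart. Control probe sets (64 per type) and those with a mean over the 15 arrays under the 40th percentile (101 on A, 199.6 on B) were left out. P-values were adjusted by Benjamini-Hochberg over all probe sets tested within a comparison, with a threshold of 0.05. Gene names came from the array annotation (1 symbol for 20393 of 22690 probe sets on A, 14674 of 22575 on B), updated by Entrez ID to RefSeq on GRCm38.p6. The scripts were tested on simulated data.

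Named were the 20 largest rises and falls on A and 10 on B among probe sets that passed, did not overlap, and passed without any 1 array. Also named were, per list, the members that passed with the highest absolute moderated statistic (at most 6), and others by role. The members and lists were chosen with earlier results of these data known. Figures were drawn with matplotlib 3.10.9.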

Additional observations from a re-analysis of the deposited data

How the results depend on the processing

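None of the called probe sets named or listed changed direction under the 10 other settings or in the runs that left out 1 array, though small list medians (myogenic regulators, Notch, immediate early, FOXO, hypoxia and ribosomal lists) changed sign with scaling. Of 858 named or listed probe sets 244 passed, 167 of them without any 1 array and 189 under every other setting. Restricting the fit to the 2 times lost 31 of these calls, no filter on dim probe sets 28, no intensity trend 26, median scaling 25 and quantile normalization 12. The cause of each was not tested unless stated. The number of A array probe sets called at 48 h against 0 h was 909, and 2396 with array weights, which gave 48 h replicate 1 a weight of 5.03 and the other 48 h arrays 0.538 to 0.647. Without 1 array it was 526 to 744. The number of A array probe sets called at 48 h against 24 h was 85, and 55 under median scaling, 1345 with array weights and 34 to 77 without 1 array. Its share of higher calls was 87.1%, and 70.9% under median scaling, 63.9% with only the 2 times and 61.1% with array weights. The number of B array probe sets called at 48 h against 0 h was 126, and 77 with no intensity trend and 74 to 131 without 1 array. For B array probe sets called at 48 h against 24 h it was 9, and 4 with only the 2 times and 6 to 9 without 1 array. With the replicate block the counts at 48 h against 0 h were 886 (A) and 122 (B), and against 24 h 80 and 6, and 11 of the 244 named or listed calls were lost. Deviations of same-numbered arrays of the 2 times had correlations of -0.03, 0.15 and 0.13 on A and -0.001, -0.04 and -0.06 on B. On A, 0 h replicate 2 with 48 h replicate 3 gave -0.15, and 0 h replicate 3 with 48 h replicate 2 gave -0.14. Replicates 2 and 3 on A thus deviated weakly with their own number, and a shared origin was not tested. The main fit took no pairing from the numbers. Dim probe sets limit what could be tested: 145 listed genes on the arrays lay below the filter.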
